A study of Caenorhabditis elegans with 2 samples.

Results

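The genes described here encode ligand-gated ion channels and potassium channels of Caenorhabditis elegans. They were chosen by name alone, as rows whose symbol begins with acr-, lgc-, glr-, nmr-, twk-, slo-, shk-, shl-, kqt- or irk- and a digit, and 138 of the 46135 genes in the deposited table met that rule. They comprised 21 acr, 53 lgc, 8 glr, 2 nmr, 44 twk, 2 slo, 1 shk, 1 shl, 3 kqt and 3 irk genes. Their RNA was measured in whole L3 larvae of 2 genotypes, the lsm-1(tm3585) mutant and the N2 wild type, with 1 library each. Both cultures were started from synchronised L1 larvae and kept at 25 °C for 26 hours. The mutant line had 3 backcrosses to N2. The product of lsm-1 belongs to a ring of Lsm proteins in the cytoplasm that helps strip the cap from messenger RNAs before they decay.

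Ligand-gated channels open when a transmitter binds and so turn a chemical signal into a current at synapses and at the neuromuscular junction. The acr and lgc genes encode subunits of the Cys-loop superfamily, in which several subunits surround a shared pore: the acr subunits belong to cation-conducting nicotinic acetylcholine receptors, and the lgc subunits include channels for acetylcholine, GABA, serotonin, dopamine and tyramine that pass either cations or chloride. The glr and nmr genes encode ionotropic glutamate receptors. Potassium channels pull the membrane back towards rest: the twk channels, each subunit of which carries a pair of pore loops, pass a background leak, while the slo, shk, shl, kqt and irk channels respond to calcium or voltage or rectify inward current. In the worm many of these genes act in neurons, body wall muscle or pharynx.

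All levels are the FPKM that the authors deposited, a fragment count divided by transcript length and library size, so levels can be set side by side between genes. A gene was called measured when it reached 1 FPKM in either library, and a difference is log2(FPKM + 1) in the mutant minus the same in N2, which understates changes of low genes. The size rule counts measured genes that differ by at least 1 on this scale. With 1 library per genotype there is no replicate check and no p-value was computed, and the authors' own test sets 1 library against the other, not genotypes. The median difference of all 14838 measured genes was 0.24, a factor of 1.18 in FPKM + 1, and differences are read against it. The lsm-1 transcript itself was found at 5.94 FPKM in the mutant and 10.2 in N2 and did not pass the authors' test, in whose deposited table its q was 0.457. In whole larvae, fewer cells of a type and less RNA per cell cannot be told apart.

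Most channel genes were present at low levels. Of the 138 genes, 135 had an FPKM above 0 in at least 1 library and 69 were measured, with a median of 2.15 FPKM in the mutant and 1.51 in N2 against 4.55 and 3.78 for all measured genes. In 58 of the 69 the higher of the values lay between 1 and 5 FPKM, and only lgc-21, lgc-22, lgc-27 and lgc-34 reached 10. The other 69 genes stayed below 1 FPKM in both libraries. A transcript with 1 kilobase of effective length gained about 0.0922 FPKM per fragment in the mutant and 0.113 in N2, as estimated from the steps between low values. Of the 77 channel genes with 1 annotated transcript, 34 rested on under 10 fragments in each library and 13 on at least 50 fragments in 1 of them. Exons of 40 of the 138 genes overlap those of another coding gene in the WBcel235 annotation, and the notes do not say whether reads were assigned by strand.

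**Figure D1:**
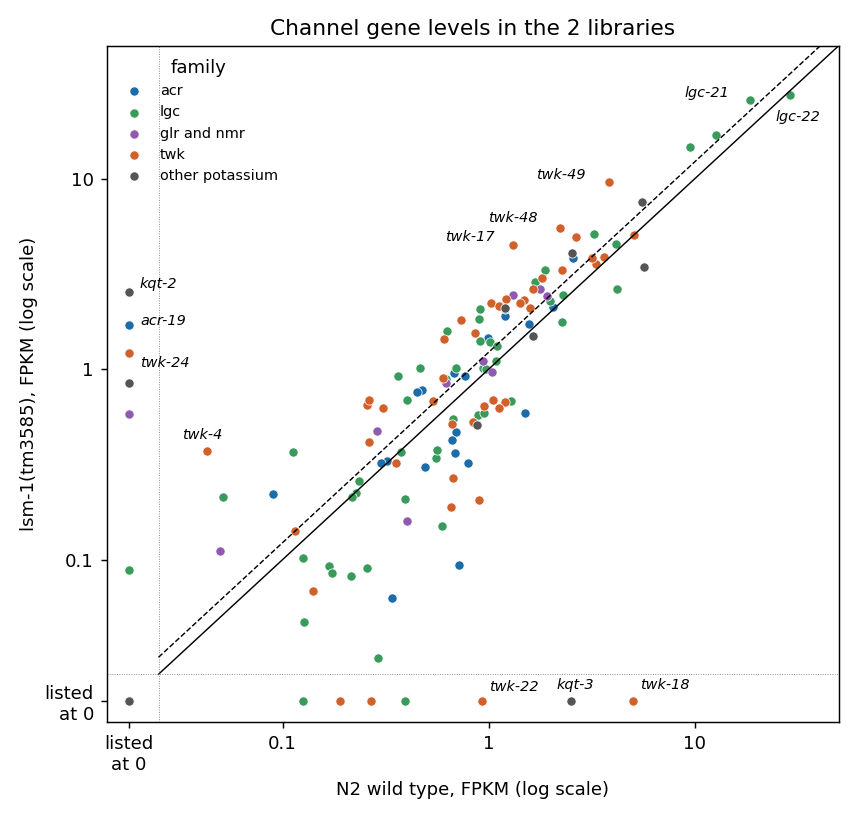
FPKM of each of the 138 channel genes in N2 (x axis) and lsm-1(tm3585) (y axis), both on log scales, with 1 point per gene coloured by family and genes listed at 0 drawn on the margins. The solid line marks equal values and the dashed line a ratio of 1.23, the median FPKM ratio of all measured genes above 0 in both libraries. Most points follow the lines, and the genes of the upper right corner are lgc-21, lgc-22, lgc-27 and lgc-34.

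Few channel genes differed by the rules used, and the counts were near or under those of the table as a whole. By the size rule 6 of 69 measured channel genes (8.70%) were higher in the mutant, against 13.6% of all measured genes, and 2 (2.90%) were lower, against 12.2%. The higher genes were acr-19, kqt-2, twk-17, twk-24, twk-48 and twk-49, and the lower ones were kqt-3 and twk-18. Of these 8 genes, acr-19, kqt-2, twk-24, kqt-3 and twk-18 were listed at 0 in 1 library, where the rule is met by construction. A measured channel gene was listed at 0 in 1 library in 5 of 69 cases (7.25%), against 17.2% of all measured genes. Among the 64 measured above 0 in both libraries, 3 were higher by the size rule (4.69%, against 6.51% of such genes) and none was lower (against 3.86%).

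In the authors' deposited table, 102 channel genes had a usable test and 4 passed it (3.92%, against 3.76% of all genes with a usable test). The genes acr-19, twk-17 and twk-24 were higher in the mutant and twk-22 was lower, where the shares over all genes were 2.35% and 1.41%. None of the 4 was above 0 in all 4 deposited FPKM columns. At an unadjusted p of at most 0.05 that table held 12 channel genes, 11.8% of those tested, against 14.2% of all tested genes.

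Most measured channel genes had a slightly higher value in the mutant. Of the 64 channel genes measured above 0 in both libraries, 53 had the higher value in the mutant (82.8%, against 67.6% of all such genes) and 11 in N2. A gene near 1 FPKM can pass the filter only through the library where it is higher, which fixes its direction. Measured channel genes lay nearer that limit than all measured genes, with medians of 2.15 against 4.55 FPKM in the mutant. This bears on every count of direction among measured genes here and below, and its part was not tested. Their differences were centred on 0.38, against 0.24 for all such genes, and 38 of the 64 lay above the median of all measured genes. No test of this shift was possible with 1 library per genotype.

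Channel genes below 1 FPKM more often had the lower value in the mutant. Across all genes at such levels the higher value in the mutant was rarer still. Equal fragments in both libraries gave an FPKM ratio of 0.819, so a gene with as many fragments in each counts as lower. This range also leaves out any gene that reached 1 FPKM in the mutant or in N2. The part of either in these counts was not tested. Of the 58 channel genes that stood above 0 in both libraries but under 1 FPKM in each, 24 had the higher value in the mutant (41.4%, against 32.0% of all genes in that range of levels) and 34 the lower one. On the lower side were acr-6 (0.0627 FPKM in the mutant and 0.338 in N2), lgc-51 (0.151 and 0.598) and twk-45 (0.190 and 0.654). On the higher side were lgc-41 (0.928 and 0.365), twk-32 (0.689 and 0.262) and twk-10 (0.648 and 0.257). None of these 6 passed the authors' test, and acr-6 was marked there as not tested.

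**Figure D2:**
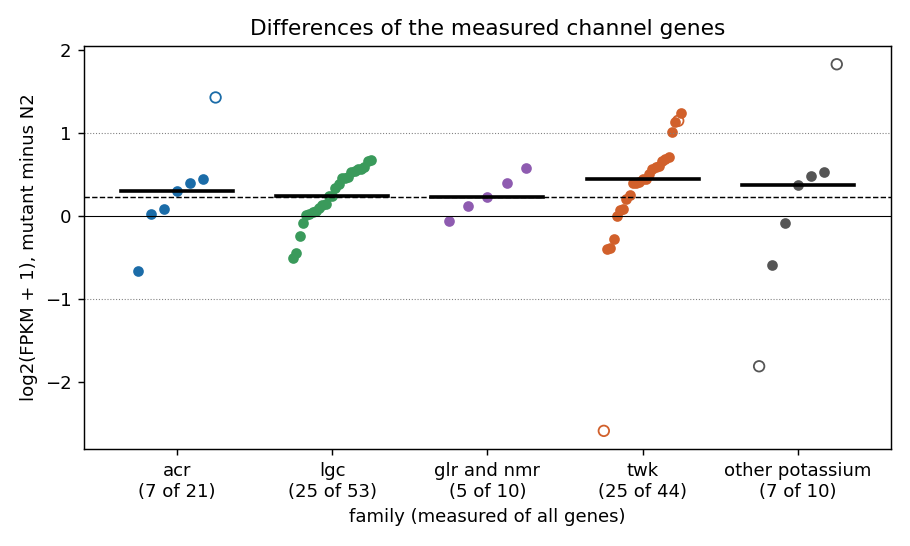
Difference in log2(FPKM + 1), mutant minus N2, for the 69 measured channel genes by family. Filled points are genes above 0 in both libraries, open points are genes listed at 0 in 1 library, thick bars are family medians, the dashed line is the median of all measured genes (0.24) and dotted lines are the size rule. The twk bar, at 0.45, lies above the dashed line, and the lgc and glr with nmr bars lie on it.

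The acr genes encode subunits of nicotinic acetylcholine receptors, the channels through which motor neurons excite muscle. Of 21 genes, 7 were measured, with a median difference of 0.31. By the size rule 1 was higher (14.3%, against 13.6% of all measured genes) and none was lower (against 12.2%). Over all 21, without the filter on low values, the median was 0.028, against 0.032 for all genes above 0 in either library. The most abundant was acr-16 (F25G6.3, chromosome V), which forms the nicotine-sensitive receptor of body wall muscle, at 3.87 FPKM in the mutant and 2.57 in N2. These values rest on about 68 and 37 fragments, and the ratio of 1.51 had a 95% counting interval from 0.994 to 2.31. Its neighbour acr-15 stood at 2.13 and 2.07 FPKM. The interval of acr-16 included 1, and the levels of acr-15 were nearly equal.

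The subunit gene acr-8, related to the levamisole-type receptors of muscle, was found at 1.92 FPKM in the mutant and 1.21 in N2. The motor neuron subunit gene acr-12 stood at 1.46 and 0.991, and acr-24 at 1.73 and 1.57. In the other direction acr-20, of the DEG-3 group of receptors, was found at 0.589 FPKM in the mutant and 1.51 in N2, and in the authors' deposited table it did not pass the test (q = 0.343). These 4 genes were below 2 FPKM in both libraries. The gene acr-19 (C31H5.3, chromosome I) was the only one of the family past the authors' test, at 1.70 FPKM in the mutant and listed at 0 in N2, with q = 0.0018 in the authors' deposited table. The further pair of FPKM columns, from the same 2 libraries, listed it likewise, at 1.49 FPKM and 0.

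The 14 acr genes below 1 FPKM reached at most 0.951. Among them acr-2 and acr-3, neighbours that encode subunits of a motor neuron receptor, were found at 0.321 and 0.756 FPKM in the mutant and at 0.299 and 0.449 in N2. The gene acr-5 stood at 0.919 and 0.772 FPKM, and acr-23, which encodes a betaine-gated channel that the anthelmintic monepantel targets, at 0.424 and 0.666. The gene acr-10 was found at 0.0932 FPKM in the mutant and 0.721 in N2, on about 1.56 and 9.88 fragments, so its ratio of 0.129 had a counting interval from 0.0174 to 0.768. In the authors' deposited table acr-10 did not pass the test (q = 0.323).

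The lgc genes held the most abundant channels of all. Of 53 genes 25 were measured, all of them above 0 in both libraries, and none met the size rule in either direction. Among all genes measured above 0 in both libraries 6.51% were higher by that rule and 3.86% lower. Such shares are too small to tell from none among 25 genes. The highest were lgc-22 (F15E6.2, chromosome IV), at 27.5 FPKM in the mutant and 29.1 in N2, and lgc-21 (C33G3.3, chromosome X), at 25.8 and 18.5. Next came lgc-27, at 16.98 and 12.7 FPKM, and lgc-34, at 14.7 and 9.56. These 4 genes made up 62.9% of the summed FPKM of the family in the mutant and 61.9% in N2. Apart from lgc-22, which had the slightly lower value there, they had the higher value in the mutant, and none of the 4 passed the authors' test. For lgc-21 about 367 and 215 fragments gave a ratio of 1.396 with a counting interval from 1.18 to 1.66, and for lgc-34 about 194 and 103.3 fragments gave 1.54 with an interval from 1.21 to 1.98.

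Several lgc genes encode channels whose transmitter is known. The serotonin-gated cation channel gene lgc-50 was found at 5.17 FPKM in the mutant and 3.24 in N2, a ratio of 1.60 with a counting interval from 1.15 to 2.23. The tyramine-gated chloride channel gene lgc-55 stood at 1.83 and 0.903, and lgc-53, which encodes a dopamine-gated channel, at 1.001 and 0.967. The GABA-gated cation channel gene lgc-35 stood at 2.07 and 0.914 FPKM. All 4 had the higher value in the mutant, lgc-53 by the least, and in the authors' deposited table none passed the test.

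Acetylcholine also opens chloride channels in the worm. The genes lgc-46 and lgc-47, which encode such channels, were found at 1.41 and 1.58 FPKM in the mutant and at 0.906 and 0.625 in N2. The gene lgc-39, whose channel responds to acetylcholine and to amines, stood at 3.34 and 1.88. In contrast lgc-40, which encodes a chloride channel opened by serotonin and by choline, was found at 2.65 FPKM in the mutant and 4.18 in N2. About 42.6 and 55.0 fragments gave lgc-40 a ratio of 0.633 with a counting interval from 0.419 to 0.971. It was thus the lowest measured lgc gene by difference, at -0.51, and its q in the authors' deposited table was 0.490.

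The measured lgc genes not yet described ran from 1.02 to 4.54 FPKM in the mutant, with lgc-25 alone below. The highest of them was lgc-43, at 4.54 FPKM in the mutant and 4.18 in N2, followed by lgc-44 at 2.89 and 1.69. The genes lgc-31, lgc-32 and lgc-26 stood at 2.46, 2.29 and 2.07 FPKM in the mutant and at 2.30, 1.99 and 1.20 in N2. Each of these 5 had the higher value in the mutant. The genes lgc-20, lgc-28, lgc-30, lgc-4, lgc-10 and lgc-38 stood at 1.39, 1.33, 1.11, 1.02, 1.02 and 1.02 FPKM in the mutant and at 1.02, 1.11, 1.09, 0.943, 0.466 and 0.698 in N2. Lower in the mutant were lgc-45, at 1.77 against 2.28 FPKM, and lgc-25, at 0.678 against 1.28. The remaining 28 lgc genes reached at most 0.953 FPKM. Of these lgc-5 and lgc-49 were listed at 0 in both libraries, lgc-19 and lgc-8 in the mutant only, with 0.393 and 0.126 FPKM in N2, and lgc-13 in N2 only, with 0.0882 FPKM in the mutant.

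The glutamate receptors showed no gene past either rule, with 5 measured and 7 with a usable test. Among all genes measured above 0 in both libraries 6.51% were higher by size and 3.86% lower. Of all genes with a usable test 3.76% passed it. Of the 10 glr and nmr genes 5 were measured, and their median difference was 0.23, close to the 0.24 of all measured genes. The genes glr-1 and glr-2 encode AMPA-type subunits of the command interneurons that drive locomotion, and they were found at 0.963 and 1.11 FPKM in the mutant and at 1.03 and 0.939 in N2. The ratio of glr-1, 0.931, had a counting interval from 0.519 to 1.61. A difference in glr-1 was not detectable at this depth, and glr-2, with several annotated transcripts, has no such interval.

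The other non-NMDA genes glr-4, glr-5 and glr-6 stood at 2.43, 2.47 and 2.66 FPKM in the mutant and at 1.91, 1.32 and 1.77 in N2. All 3 had the higher value in the mutant, and glr-5, with about 71.4 and 31.3 fragments, had a ratio of 1.87 with a counting interval from 1.21 to 2.96. In the authors' deposited table its q was 0.404. The cold receptor gene glr-3 stood at 0.159 and 0.404 FPKM, glr-7 at 0.111 and 0.0498, and glr-8 at 0.476 and 0.289. Of the NMDA-type subunits, nmr-2 was found at 0.842 FPKM in the mutant and 0.621 in N2, and nmr-1 at 0.586 in the mutant and listed at 0 in N2. About 18.8 fragments lay behind the nmr-1 value in the mutant, and the authors' deposited table gives this gene p = 1, so its value of 0 can be a failed estimate.

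**Figure D3:**
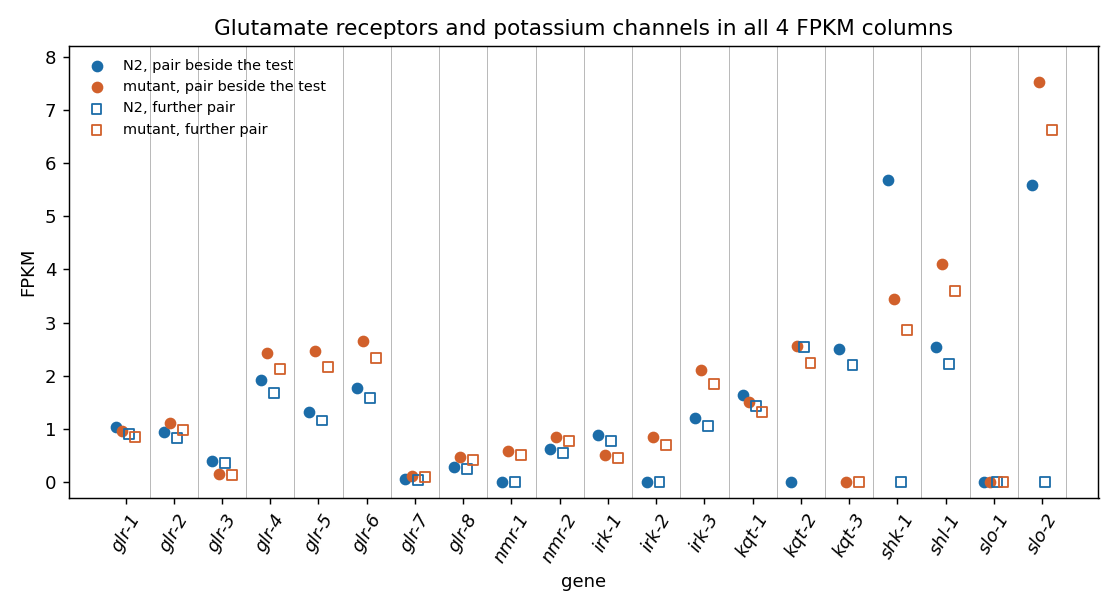
FPKM of the 10 glutamate receptor genes and the 10 slo, shk, shl, kqt and irk genes in all 4 deposited FPKM columns. Filled circles are the pair beside the authors' test and open squares the further pair from the same libraries, in blue for N2 and orange for the mutant. For most genes the pairs follow each other, but kqt-2, shk-1 and slo-2 are listed at 0 for N2 in 1 pair and well above 0 in the other.

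The twk genes encode leak channels. Of 44 genes 25 were measured with a median difference of 0.45. By the size rule 4 were higher (16%, against 13.6% of all measured genes) and 1 was lower (4%, against 12.2%). These shares include genes listed at 0 in 1 library. Among the 23 above 0 in both libraries 3 were higher by size, against 6.51% of all such genes. None of the 23 was lower, against 3.86%. Without the filter on low values the median was 0.23, against 0.032 for all genes above 0 in either library. Of the 23 measured above 0 in both libraries, 20 had the higher value in the mutant (87.0%, against 67.6% of all such genes). Among those above 0 in both libraries the largest differences belonged to twk-17 (C44E12.3, chromosome X), at 4.50 FPKM in the mutant and 1.32 in N2, and twk-49 (R05G9.2, chromosome II), at 9.60 and 3.83. The gene twk-48 (K11H3.7, chromosome III) followed at 5.54 and 2.23 FPKM. These 3 stood from 2.48 to 3.40 times as high in the mutant.

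Of the 3, twk-17 passed the authors' test, with q = 0.0061 in the authors' deposited table. Its 7 annotated transcripts make the fragments behind it uncertain, and the further pair listed it at 0 in both libraries. The authors' deposited table gave twk-49, with 4 annotated transcripts, a q of 0.887. For twk-48, with 1 annotated transcript, about 68.2 and 22.5 fragments gave a ratio of 2.48 with a counting interval from 1.49 to 4.07, and its q in the authors' deposited table was 0.179. The exons of twk-17, twk-48 and twk-49 each overlap those of a coding neighbour, and the part of shared reads in their values was not tested.

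A few twk genes were listed at 0 in 1 library. The gene twk-24 (F55C5.3, chromosome V) was found at 1.22 FPKM in the mutant, on about 22.9 fragments, and was listed at 0 in N2, with q = 0.0061 in the authors' deposited table. The gene twk-22 (T01B4.2, chromosome X) stood at 0.927 FPKM in N2 and was listed at 0 in the mutant, with q = 0.016 there. The further pair, from the same libraries, listed both genes at 0 in both, so neither value was repeated there. The gene twk-18, which encodes a potassium channel of body wall muscle, was listed at 0 in the mutant and stood at 5.01 FPKM in N2. The authors' deposited table gives twk-18 a log2 fold change of 0 and p = 1, although the further pair, from the same libraries, also lists 0 and 4.4 FPKM. The genes twk-6 and twk-20 were listed at 0 in the mutant and had 0.268 and 0.189 FPKM in N2. Muscle filament genes such as unc-15 are listed at 0 in both libraries too, so an exact 0 can be a failed estimate and is not read as a loss of expression.

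The remaining measured twk genes lay close together. The highest were twk-34, at 5.09 FPKM in the mutant and 5.08 in N2, and twk-1, at 4.98 and 2.65. The ratio of twk-34, 1.001, had a counting interval from 0.750 to 1.34, and twk-1 had q = 0.346 in the authors' deposited table. The gene twk-7, which sets the activity of motor neurons in locomotion, stood at 3.33 and 2.28 FPKM, and twk-40, which acts in command interneurons, at 2.22 and 1.42. Both had the higher value in the mutant, but the further pair lists twk-40 at 0 in the mutant and 1.29 FPKM in N2. The direction of twk-40 thus depends on which pair is read.

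Nearly equal values were found for twk-5 (3.87 and 3.62 FPKM in the mutant and N2), twk-46 (3.57 and 3.32) and twk-8 (3.83 and 3.19). The genes twk-39, twk-43, twk-29 and twk-2 had levels of 3.01, 2.63, 2.30 and 2.09 FPKM in the mutant and of 1.83, 1.65, 1.49 and 1.60 in N2. The genes twk-28 and twk-12 were found at 2.22 and 1.45 FPKM in the mutant and at 1.03 and 0.608 in N2, with ratios of 2.15 (counting interval 1.18 to 4.44) and 2.38 (1.13 to 5.09). The genes twk-13, twk-31, twk-42 and twk-30 stood at 2.34, 2.15, 1.81 and 1.54 FPKM against 1.22, 1.12, 0.739 and 0.864. All of these had the higher value in the mutant. None passed the authors' test, for which twk-13 was marked as having too few data. In the further pair twk-13 and twk-43 were listed at 0 in N2 and had 2.08 and 2.31 FPKM in the mutant.

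Measured twk genes with the lower value in the mutant were twk-9 (0.687 FPKM against 1.05), twk-23 (0.673 against 1.20) and twk-25 (0.627 against 1.12). The 19 twk genes below 1 FPKM reached at most 0.951. Among them twk-36 was found at 0.205 FPKM in the mutant and 0.902 in N2, a ratio of 0.227 with a counting interval from 0.0371 to 0.758. In the other direction twk-4 was found at 0.371 FPKM in the mutant and 0.0432 in N2, on about 13 and 1.24 fragments, and its ratio of 8.59 had an interval from 1.60 to 452. These low genes thus went both ways.

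The voltage- and calcium-controlled channels were each described on their own. The slo genes encode large-conductance channels: slo-2 (F08B12.3, chromosome X) was the most abundant of the group, at 7.53 FPKM in the mutant and 5.58 in N2, while slo-1, whose channel opens with calcium and depolarisation and limits transmitter release, was listed at 0 in all 4 columns. The Shaker-type gene shk-1 (chromosome II) was found at 3.44 FPKM in the mutant and 5.67 in N2. The transient-current gene shl-1 (chromosome IV) stood at 4.10 and 2.53 FPKM. The direction of shk-1 was thus opposite to that of slo-2 and shl-1. For shl-1 about 93.4 and 47.2 fragments gave a ratio of 1.62 with a counting interval from 1.13 to 2.35, and in the authors' deposited table its q was 0.457. In the further pair slo-2 and shk-1 were listed at 0 in N2 and had 6.62 and 2.87 FPKM in the mutant, so the direction of shk-1 depends on which pair is read.

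The kqt genes encode channels of the KCNQ type, which open slowly and damp excitability. The gene kqt-1 was found at 1.5025 FPKM in the mutant and 1.64 in N2. The gene kqt-2 was found at 2.56 FPKM in the mutant and was listed at 0 in N2, but the authors' deposited table marks its test as failed and the further pair gives 2.24 and 2.55 FPKM. The gene kqt-3 was listed at 0 in the mutant and stood at 2.504 FPKM in N2, marked as having too few data. The size calls of kqt-2 and kqt-3 thus both rest on a value of 0, and that of kqt-2 is absent from the further pair. Of the inward rectifiers, irk-3 was found at 2.10 FPKM in the mutant and 1.21 in N2, irk-1, which acts in the egg-laying motor neurons, at 0.510 and 0.884, and irk-2 at 0.851 in the mutant and listed at 0 in N2. Of the 10 slo, shk, shl, kqt and irk genes 6 had a usable test and none passed it, against 3.76% of all such genes.

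A counting interval of the ratio could be computed for 66 of the 138 channel genes, all with 1 annotated transcript. It included 1 for 51 of the 66, lay above 1 for 12 and below 1 for 3. The median FPKM ratio of all measured genes above 0 in both libraries, with no pseudocount, was 1.23. Set against that ratio, the intervals of twk-4 and twk-48 lay above it, and those of acr-10, acr-25, lgc-25, lgc-40 and twk-36 lay below it. Those of acr-25 (0.126 to 1.18) and lgc-25 (0.224 to 1.20) also included 1. The genes twk-4, acr-10, acr-25 and twk-36 stayed below 1 FPKM in both libraries, so the ratio of 1.23 is not matched to their level. There 32.0% of all genes above 0 in both libraries had the higher value in the mutant. These intervals cover counting error only and leave out the variation between cultures, which 1 library per genotype cannot show.

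**Figure D4:**
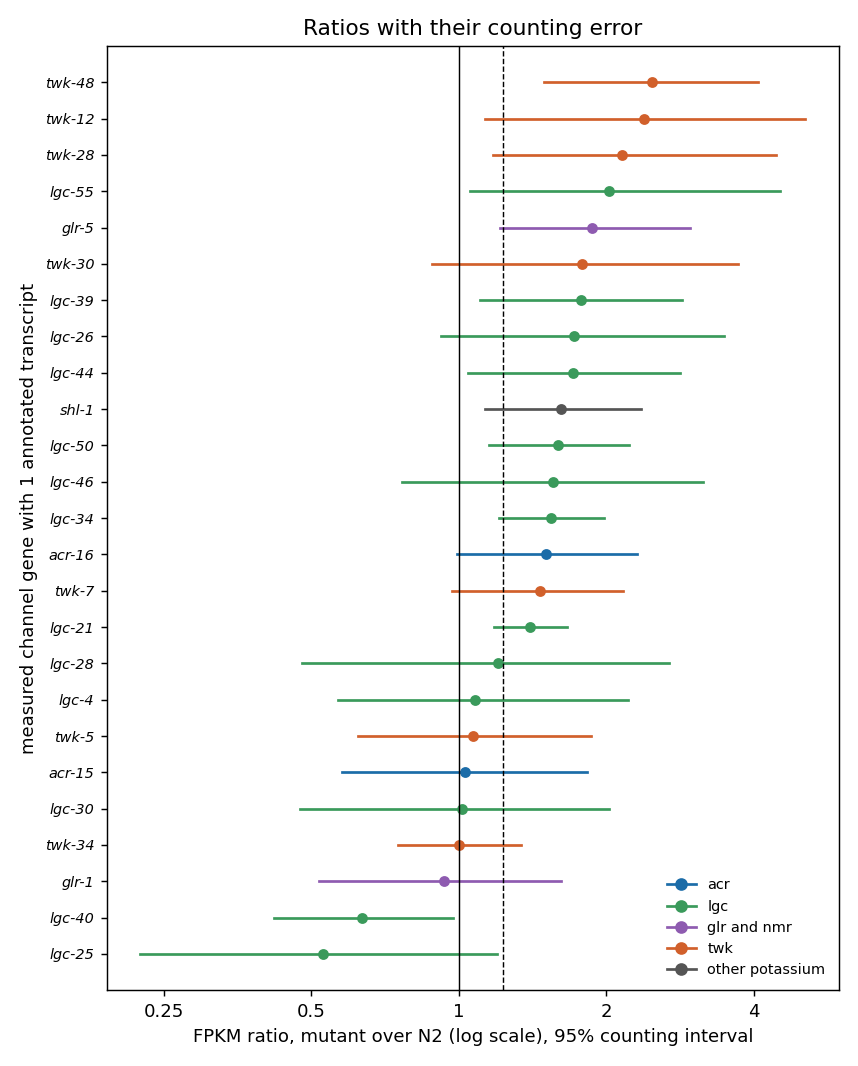
FPKM ratio of mutant over N2, on a log scale, for the 25 measured channel genes with 1 annotated transcript and an interval. Points are ratios, bars are 95% counting intervals, the solid line marks a ratio of 1 and the dashed line the median FPKM ratio of 1.23. The bar of twk-48 lies wholly above the dashed line, those of glr-5 and lgc-34 reach just across it, and that of lgc-40 lies below the solid line.

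Position gave a further view of the genes. In the WBcel235 annotation 25 of the 138 genes stand next to another channel gene, in 11 runs, when only coding genes are counted. The longest run, lgc-13 to lgc-17 on chromosome X, holds 5 genes on 1 strand, whose levels ran from 0 to 0.374 FPKM over both libraries. In the pair twk-21 and twk-22 on the same chromosome both genes had the lower value in the mutant, 0.268 FPKM and 0 against 0.671 and 0.927. The pair acr-25 and lgc-10 on chromosome IV, which lie on opposite strands, differed in direction: acr-25 had 0.320 FPKM in the mutant and 0.796 in N2, and lgc-10 had 1.02 and 0.466. By chromosome the genes numbered 42 on X, 33 on V, 18 each on II and IV, 17 on III and 10 on I. All genes were not counted by chromosome, so neither this spread nor the directions that follow can be set against them. Of the genes measured above 0 in both libraries, the higher value was in the mutant for 3 of 3 on I, 9 of 12 on II, 9 of 10 on III, 6 of 9 on IV, 14 of 14 on V and 12 of 16 on X, against 67.6% of all such genes in the table.

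Channel genes with other names, and genes for proteins that work with channels, were followed in 6 lists. Of the 8 nicotinic subunit genes with other names, 7 were measured, with a median difference of 0.41. None met the size rule and none passed the authors' test. Among all genes measured above 0 in both libraries, as these 7 were, 6.51% were higher by size and 3.86% lower. Of all genes with a usable test 3.76% passed it. The muscle subunit gene lev-1 was found at 5.89 FPKM in the mutant and 2.70 in N2, and unc-38 at 3.19 and 2.10. At the low end were lev-8, at 1.47 and 1.60 FPKM, and deg-3, at 3.84 and 3.19. Among 12 genes for assembly and clustering of receptors 10 were measured, and the median was 0.45. The size rule counted 2 as higher (20%, against 13.6% of all measured genes) and none as lower (against 12.2%). The row of eat-18, a locus shared with lev-10, the scaffold that clusters the muscle receptors, stood at 13.3 FPKM against 4.01. The gene cam-1, the other of the 2, was listed at 0 in N2, was found at 4.98 FPKM in the mutant and passed the authors' test. It was 1 of 9 on this list with a usable test, against 3.76% of all such genes that passed. At the low end were lev-9 (0.788 FPKM against 1.01) and molo-1 (2.33 against 2.85).

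Of 19 further ligand-gated channel genes 13 were measured, with a median difference of 0.43. The size rule counted 1 as higher (7.69%, against 13.6% of all measured genes) and none as lower (against 12.2%). That gene was pbo-6, which encodes a subunit of a proton-gated channel of muscle, at 3.05 FPKM against 0.948. The glutamate-gated chloride channel gene glc-4 stood at 4.68 against 2.10, glc-1 at 6.20 against 6.94 and avr-15 at 2.37 against 2.85. Of the 19 genes 17 had a usable test and none passed it, against 3.76% of all such genes. Of 10 genes that act with glutamate receptors or sense glutamate, 6 were measured with a median of 0.54. There cni-1 was listed at 0 in N2, was found at 14.1 FPKM in the mutant and passed the authors' test. It was 1 of 7 with a usable test, against 3.76% of all such genes that passed. The auxiliary subunit gene sol-2 stood at 2.77 against 1.05, mgl-2 at 3.57 against 2.13, sol-1 at 1.95 against 1.81 and stg-2 at 1.44 against 1.04.

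Potassium channels with other names were mostly higher in value in the mutant. Of 16 genes 13 were measured, with a median difference of 0.56, and all 9 measured above 0 in both libraries had the higher value in the mutant. The size rule counted 4 as higher (30.8%, against 13.6% of all measured genes) and 1 as lower (7.69%, against 12.2%), but only kvs-5 met it with values above 0 in both libraries. Listed at 0 in N2 were exp-2, kcnl-2 and kvs-1, and kvs-2 was listed at 0 in the mutant. The authors' deposited table marks the test of exp-2 as failed, and the further pair gives exp-2 at 4.85 FPKM in the mutant and 2.80 in N2. The voltage-gated gene kvs-5 stood at 3.74 FPKM against 1.29, and egl-2, of the EAG type, at 4.01 against 1.80. At the low end egl-23 stood at 1.98 against 1.45 and kcnl-4 at 2.67 against 2.35. The genes past the authors' test, kvs-1 (2.53 FPKM in the mutant) and kcnl-1 (0.743 in N2), were listed at 0 in the other library. They were 2 of 14 with a usable test, against 3.76% of all such genes. Of 12 genes for channel partners 9 were measured, with a median of 0.33 and 1 higher by the size rule (11.1%, against 13.6% of all measured genes). That gene was erg-28, whose product keeps the SLO-1 channel from degradation, at 8.43 FPKM against 3.39, and stn-1 stood at 10.04 against 5.38. The lowest were mps-2 (2.67 against 2.92) and sup-10 (0.723 against 1.54).

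Marker genes of most tissues, not only of those said to use these channels, also stood higher in value in the mutant library. Their part in the differences above was not tested. Of 18 measured neuron markers, all 14 above 0 in both libraries had the higher value in the mutant, against 67.6% of all such genes. The median difference over the 18 was 0.51 and the summed level 255 FPKM against 155. The genes rab-3, unc-31, sbt-1 and rgef-1 were listed at 0 in N2, and over the 14 without them the median was 0.47 and the sum 223 FPKM against 155. In the further pair rab-3, unc-31 and sbt-1 were listed at 0 in both libraries, so their values in the mutant were not repeated there. The marker unc-33 stood at 11.7 FPKM against 5.10 and ida-1 at 19.6 against 17.2. The neuron marker unc-18 was listed at 0 in both libraries. Of 8 measured body wall muscle markers all 8 had the higher value in the mutant, with a median of 0.64 and a sum of 947 against 677. The muscle markers unc-15, unc-22, unc-89 and lev-11 were listed at 0 in both libraries. Pharynx markers had a median of 0.55 and summed to 52.5 FPKM against 30.7, epidermis markers had 0.98 and 298 against 183, and intestine markers had 0.32 and 372 against 326. The higher value was in the mutant for all 8 measured epidermis markers and for 5 of 8 measured intestine markers, with 3 lower. All 10 germ line markers had the lower value in the mutant, with a median of -0.65 and a sum of 38.1 FPKM against 60.2. Of markers with a usable test, 3 of 17 neuron, 1 of 9 pharynx, 3 of 8 epidermis and 1 of 9 germ line genes passed it. The share over all genes with a usable test was 3.76%. The genes that passed were unc-10, sbt-1, rgef-1 and phat-3, each listed at 0 in N2, elt-1, elt-3 and grd-10, higher in the mutant, and glh-2, lower.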

How the data were processed

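The authors deposited 1 table with a pair of FPKM values per gene beside their test, a further FPKM pair from the same 2 libraries, a p-value and q-value, a log2 fold change and the score of the test, which was not used. Per the labels' protocols, total RNA was freed of ribosomal RNA before Illumina TruSeq RNA library preparation. TopHat, Cufflinks and Cuffdiff are named, without versions or roles, in the submitters' processing notes. Genome build, annotation and total depth were not given in the sources used here. Coordinates are therefore left out.

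The pair beside the authors' test was used throughout, with a pseudocount of 1, a minimum of 1 FPKM in either library and a size rule of 1 on the log2 scale. Its values were at the median 1.14 times those of the further pair in each library, so agreement between the pairs is no independent check. The members and gene lists were chosen with earlier results of these data known. Genes were named by family: all glr, nmr, slo, shk, shl, kqt and irk genes, and for acr, lgc and twk those past a rule, the most abundant and the ends of the ranking. Other members were named for their known role or to account for them after their values were seen. List genes were named where past the authors' test or at the ends of their ranking. Of the 153 list entries 4 had no match in the table, and eat-18 and lev-10 share 1 row.

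All 138 symbols, with their chromosomes, matched the Ensembl release 115 annotation of WBcel235, which gave transcript lengths, overlaps and neighbours but need not be the annotation behind the deposited values. The value of 1 fragment was estimated from 3746 low genes with 1 transcript: with 200 bases taken off the length, 31.6% of their values came within 0.04 of a whole number of fragments, against 8% for evenly spread values. Fragments were rounded, and 95% exact binomial intervals (Clopper-Pearson) of the ratio were taken with scipy 1.17.1 under Python 3.11.15. The step estimate and interval were tested on simulated data. Alternatives were another pseudocount, other filters, the further pair, other scaling and other limits of the authors' test.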

Additional observations from a re-analysis of the deposited data

How the results depend on the processing

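Of 65 recomputed values, 49 stayed within 1.5 times the count or within the 95% binomial interval of the family's median, which is wide for few genes. With a pseudocount of 0.1 the median difference was 0.52 for all channel genes, 0.64 for the twk genes and 0.28 for all measured genes. By the size rule 11 channel genes were then higher (18.2% of all measured genes were). Without the filter the medians of all channel genes, acr, lgc and twk were 0.12, 0.028, 0.025 and 0.23. That of all genes above 0 in either library was 0.032. After centring on all measured genes the medians of all channel genes, acr, twk and lgc were 0.16, 0.070, 0.21 and 0.011, the glr and nmr median turned to -0.0019 and 3 genes were higher by size. With an FPKM of at least 5, no acr, glr or nmr gene is left and only slo-2 and shk-1 remain of the other potassium channels. The median of the latter then turned to -0.11, against 0.34 for all genes at that limit. By size 2 channel genes were higher and 1 lower. With only genes above 0 in all 4 columns kept, 2 of 58 measured channel genes were higher by size and 0 lower. The shares of all such genes were 6.57% and 3.86%. With the same limit 0 channel genes passed the authors' test, where 2.19% of all such genes with a usable test did. Among the 63 measured channel genes with a usable test 1 was lower by size, against 12.6% of all such genes. At an unadjusted p of at most 0.05, 12 of 102 passed in place of 4, against 14.2% of all tested genes. The split of all measured genes moved from 13.6% higher and 12.2% lower to 10.5% and 14.7% after centring. The cause of these shifts was not tested beyond the fewer genes that the filters leave. No paired analysis was possible because there was 1 library per genotype, and for the same reason no replicate could be left out. Low fragment counts limit most single genes.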
